A study of Homo sapiens with 4 samples.

Results

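The genes described here are 10 output and feedback genes of the RAS-MAPK pathway, namely the phosphatase genes DUSP4, DUSP5 and DUSP6, the inhibitor genes SPRY2, SPRY4, SPRED1 and SPRED2, the ETS factor genes ETV4 and ETV5, and the receptor gene EPHA2. They were taken by name from 19970 protein-coding genes, and each was examined over its RefSeq GRCh38 span with 50 kb on either side. The data are H3K9la ChIP-seq peak lists of KYSE30 cells, a line established from a squamous carcinoma of the oesophagus, grown in serum-supplemented DMEM and fixed with formaldehyde. The samples form 2 arms labelled sg3 and V2, each with 1 ChIP library and 1 input library. The labels do not explain either arm's name, and no genotype or treatment is assumed for either. The study's title concerns SIRT3 as an enzyme that removes this mark. The sg3 list is deposited with the sg3 ChIP sample, while the V2 list is deposited with the V2 input sample and was taken as that arm's ChIP list. The IgG control named in the study's description was not analysed here. Each arm has 1 peak list, so every difference below is between 2 libraries, has no replicate check and carries no test.

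H3K9la is histone H3 carrying a lactyl group on lysine 9, an acylation that is found at active promoters and enhancers. In the RAS-MAPK pathway, receptors load RAS with GTP, and RAF, MEK and ERK kinases pass the signal to the nucleus. ERK activity then switches on its own inhibitors, which include dual-specificity phosphatases that remove phosphate from ERK and Sprouty and Spred proteins that act near RAS and RAF. It also induces ETS factors of the PEA3 group, and the levels of these genes are widely used as a readout of pathway activity in carcinoma cells. In squamous epithelium the pathway is driven largely by EGFR.

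A record is a region of 1 peak list, described by its fold enrichment and its -log10 q, both as the authors' peak caller wrote them. Fold enrichment is the ChIP pileup over background at the summit, and it is used here to rank records within a list only. The -log10 q is likewise read within a list. Where values of both lists are given for a gene, a higher sg3 value is not taken as more mark there. Over the whole lists, 12.6% of sg3 and 8.65% of V2 records had a -log10 q of 40 or more. A record was called shared when it overlapped a record of the other list by at least 1 base. The sg3 list held 56875 records covering 54.8 Mb and the V2 list held 40332 records covering 31.3 Mb. The lists do not give the number of reads behind them, and a list cannot tell more cells with the mark from more mark per cell. A record at a gene is not a measure of its expression. As a check of the labelled cell type, 8 of 8 squamous marker genes were marked within 1 kb of the start in sg3 and 6 of 8 in V2, the exceptions being TP63 and KRT5, where 47.2% of all protein-coding genes were marked in sg3 and 28.7% in V2. Of 12 markers of hepatocytes, neurons and blood, 3 were marked in sg3 and 2 in V2, with the neuronal genes SYT1 and GAD1 marked in both.

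All 10 genes had H3K9la records in both lists, where 78.3% of protein-coding genes had one in sg3 and 64.4% in V2. The windows held 88 sg3 records and 73 V2 records, a ratio of 1.21 (exact 95% interval 0.874 to 1.67, counting error only), against 1.41 over the whole lists. Cutting the sg3 list to the length of the V2 list turned this ratio to 0.877. That cut makes the whole lists equal in record number by construction, so most of the fall is built in. Covered bases came to 107.3 kb in sg3 and 60.4 kb in V2, a ratio of 1.78, against 1.75 over the whole lists. Records in these windows had a median width of 750 bases in the sg3 list (618 over the whole list) and 595 bases in the V2 list (560 over the whole list).

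Each gene had more bases covered in sg3 than in V2. That holds for 96.4% of genes with a record of each list in the window, so it does not set these genes apart. More sg3 than V2 records were seen at 7 of 10 genes, where 60.4% of all protein-coding genes had more (71.9% of those with a record of each list), again close to the background. SPRED1 had 1 record in each list. SPRY4 and EPHA2 had fewer sg3 than V2 records, as did 7.21% of all protein-coding genes. Fewer records with more bases in sg3 were seen at 8.69% of genes with a record of each list. The windows had a median of 7.5 sg3 and 5.5 V2 records per gene, against 3 sg3 records and 1 V2 record over all protein-coding genes. This is not particular to the 10 genes. Of the pathway lists described below, other ERK output genes had medians of 15 sg3 and 14.5 V2 records, and negative regulators of RAS 10 and 5.5. The other lists had lower medians, down to 3 and 1 for the paralogues.

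**Figure D1:**
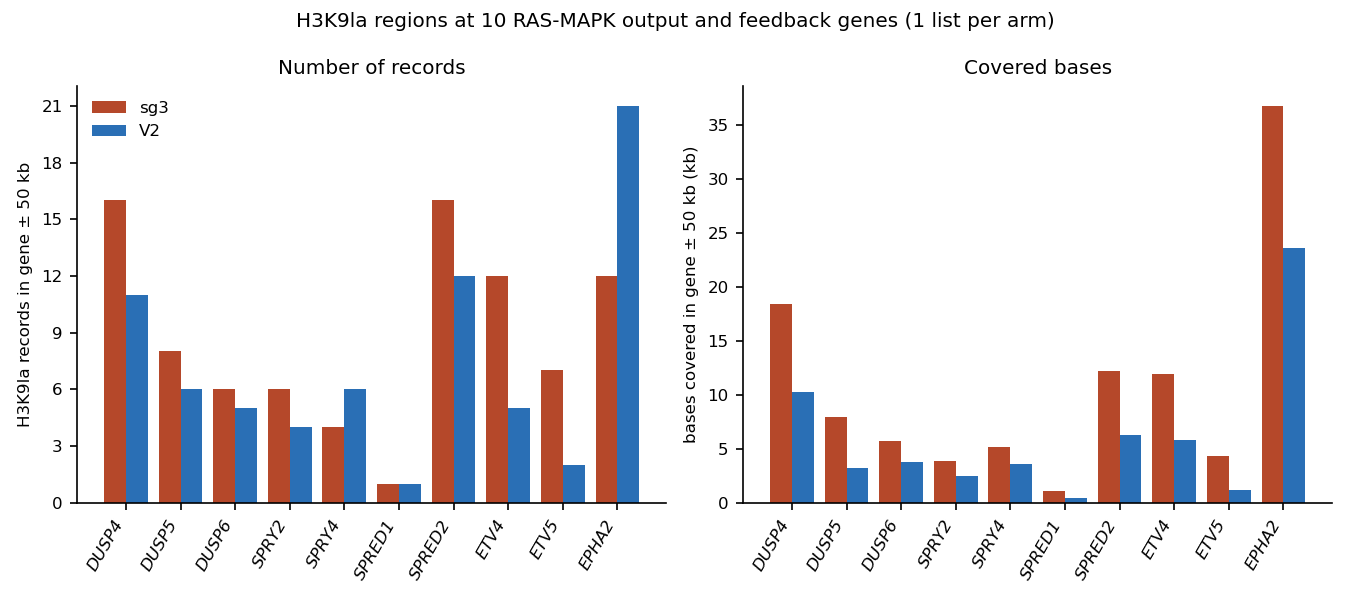
Number of H3K9la records (left) and kilobases covered by them (right) in each gene with 50 kb on either side, for the sg3 list (red) and the V2 list (blue). The V2 bar is the taller one for record number at SPRY4 (4 sg3, 6 V2) and EPHA2 (12 sg3, 21 V2), while the sg3 bar is the taller one for covered kilobases at every gene; 1 list per arm, so there are no error bars.

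Sharing between the lists was close to that of the whole lists. Of the sg3 records 48 of 88 were shared, which is 54.5% (exact 95% interval 43.6 to 65.2%), where the whole-list background is 52.4%. Of the V2 records 66 of 73 were shared, which is 90.4% (81.2 to 96.1%), where the background is 86.3%. Among sg3 records with a -log10 q of 20 or more, 29 of 30 overlapped a V2 record (96.7%, interval 82.8 to 99.9%, background 85.6%), and the exception was the record over the start of SPRY4. All 24 V2 records of that strength overlapped an sg3 record (interval 85.8 to 100%, background 99.5%).

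**Figure D2:**
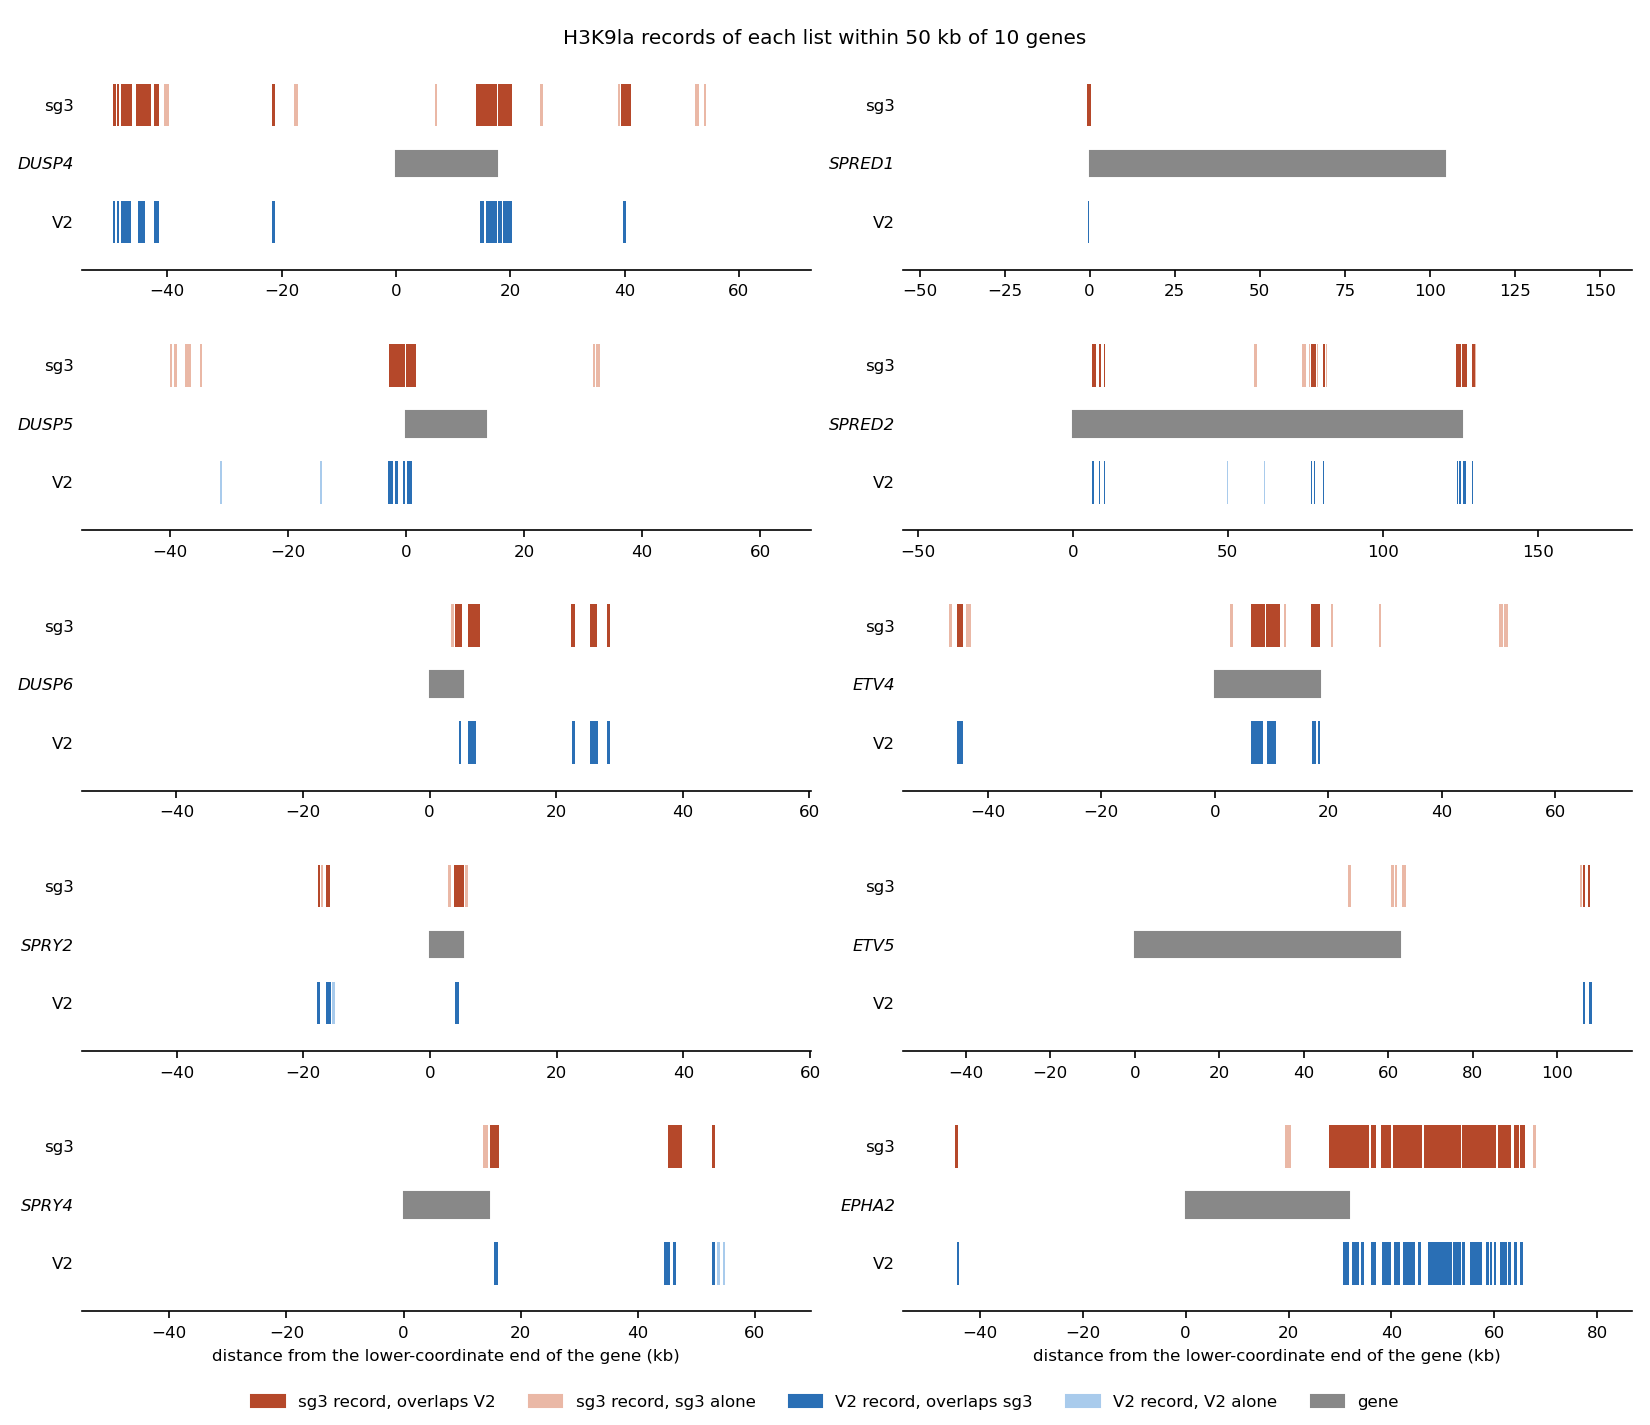
H3K9la records of the sg3 list (red, upper row) and the V2 list (blue, lower row) around each gene (grey bar), against the distance in kb from the gene's lower-coordinate end. Dark blocks overlap a record of the other list and pale blocks do not; pale sg3 blocks lie at the marked end of ETV5 and over the start of SPRY4, and a nearly continuous run lies beside EPHA2.

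The dual-specificity phosphatase genes carried records at 1 end of the gene in both lists. The highest -log10 q within 1 kb of that end was 52.0 in sg3 and 23.2 in V2 at DUSP4, 31.1 in sg3 and 19.7 in V2 at DUSP5, and 43.7 in sg3 and 27.4 in V2 at DUSP6. Together they had 30 sg3 records, of which 16 were shared, and 22 V2 records, of which 20 were shared. DUSP4, which encodes a nuclear phosphatase of ERK and other MAP kinases, lies on chromosome 8 from 29333064 to 29350684. Its window held 16 sg3 records over 18.4 kb and 11 V2 records over 10.3 kb. These numbers placed it at the 94.0th percentile of protein-coding genes for sg3 records per base and at the 92.1st for V2. At the higher-coordinate end the sg3 list had a pair of records, at 29347053 to 29350724 (fold enrichment 7.44) and at 29350900 to 29353447 (7.51). The V2 list had 4 narrower records in the same stretch of 6395 bases, and the one with the highest -log10 q (37.0) ran from 29351865 to 29353319. The stretch, whose edges are those of the sg3 records, was covered to 97.3% by sg3 records and to 73.8% by V2 records.

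DUSP4 also had a distal cluster near the lower edge of its window. The V2 record with the highest -log10 q of the window was there, from 29287862 to 29289088 (46.8, fold enrichment 10.4), 43976 bases from the gene. An sg3 record from 29287633 to 29290174 overlapped it, with -log10 q 37.9 and fold enrichment 6.19, below the 52.0 of the gene end in that list. The summits of 6 sg3 and 5 V2 records of this cluster were nearer to KIF13B, a kinesin gene, than to DUSP4. Which site led the window thus differed between the lists.

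DUSP5 encodes a nuclear phosphatase specific for ERK and lies on chromosome 10 from 110497907 to 110511533. Its window held 8 sg3 records, of which 2 were shared, and 6 V2 records, of which 4 were shared. Both shared sg3 records sat at the lower-coordinate end. The outer one ran from 110494967 to 110497739 (fold enrichment 5.27, -log10 q 31.1) and overlapped 3 V2 records. The inner one ran from 110497956 to 110499656 (4.07, 21.3), over a V2 record from 110498089 to 110498979 (3.91, 19.7). Between the records on the 2 sides of the end lay a gap of 216 bases in sg3 and of 368 bases in V2. The other records were weaker and differed in position between the lists, with 6 in sg3 of at most 17.0 in -log10 q and 2 in V2 of at most 9.18.

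DUSP6 encodes the cytoplasmic ERK phosphatase MKP3 and lies on chromosome 12 from 89347235 to 89352501, on the minus strand. Of its 6 sg3 records 5 were shared, and all 5 V2 records were shared. The strongest record in both lists was upstream of the start, at 89353265 to 89355240 in sg3 (fold enrichment 6.69, -log10 q 43.7), with a V2 counterpart at 89353301 to 89354524 (4.70, 27.4). A second pair of records lay inside the gene, and between the inner and the upstream record the start was free of records over 903 bases in sg3 and 1081 bases in V2. Further upstream, a record from 89369496 to 89370280 had the highest sg3 fold enrichment of the window (11.4), while its V2 partner had 4.57, below the 4.70 of the record beside the start. The record-free stretch held the whole RefSeq promoter of the gene.

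The sequence before the DUSP6 start is shown because it is that uncovered stretch, and the one of SPRED2 because a gap of the same kind crosses its start. The sequence of SPRY4 lies under the strongest record found in 1 list only, and those of SPRY2 and EPHA2 hold the ETS core and the CRE found below. Each is the 250 bases before an annotated start, 5′ to 3′ on the minus strand, from RefSeq GRCh38.p14. They lie at chr12:89352502-89352751 (DUSP6), chr2:65432600-65432849 (SPRED2), chr5:142324248-142324497 (SPRY4), chr13:80341127-80341376 (SPRY2) and chr1:16156070-16156319 (EPHA2). Capitals mark matches to the 4 motifs named below, on either strand.
DUSP6: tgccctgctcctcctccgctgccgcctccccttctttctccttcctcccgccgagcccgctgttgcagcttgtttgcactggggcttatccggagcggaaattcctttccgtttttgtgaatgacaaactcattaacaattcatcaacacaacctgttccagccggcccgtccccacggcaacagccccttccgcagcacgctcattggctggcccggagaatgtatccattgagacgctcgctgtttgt
SPRED2: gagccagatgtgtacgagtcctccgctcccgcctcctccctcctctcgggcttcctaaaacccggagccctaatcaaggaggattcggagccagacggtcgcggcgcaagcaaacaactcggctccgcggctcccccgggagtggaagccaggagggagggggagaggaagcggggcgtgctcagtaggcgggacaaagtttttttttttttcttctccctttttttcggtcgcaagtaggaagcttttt
SPRY4: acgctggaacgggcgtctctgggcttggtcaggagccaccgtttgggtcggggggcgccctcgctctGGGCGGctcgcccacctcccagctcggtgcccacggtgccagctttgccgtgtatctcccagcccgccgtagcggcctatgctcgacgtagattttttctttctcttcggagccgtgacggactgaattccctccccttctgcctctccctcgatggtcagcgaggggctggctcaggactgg
SPRY2: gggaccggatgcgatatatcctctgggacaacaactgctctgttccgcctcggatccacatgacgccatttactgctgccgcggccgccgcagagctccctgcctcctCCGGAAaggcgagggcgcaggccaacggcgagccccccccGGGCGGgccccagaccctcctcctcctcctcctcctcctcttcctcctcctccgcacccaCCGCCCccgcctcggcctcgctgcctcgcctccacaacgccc
EPHA2: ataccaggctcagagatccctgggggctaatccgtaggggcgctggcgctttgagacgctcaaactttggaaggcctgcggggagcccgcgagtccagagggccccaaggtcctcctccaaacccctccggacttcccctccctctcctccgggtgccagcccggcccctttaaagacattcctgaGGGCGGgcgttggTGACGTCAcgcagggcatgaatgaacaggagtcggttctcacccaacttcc

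The promoter table matched 6 of the 10 genes, with 9 annotated starts. DUSP4, DUSP5, ETV4 and ETV5 had no entry, and either end of these genes was used in place of a start. The windows of 250 bases before to 50 after a start were searched on both strands for the CRE (TGACGTCA), the AP-1 site (TGANTCA), an ETS core (CCGGAA) and the GC box (GGGCGG). Matches did not overlap in these 9 windows. The CRE was in 1 of them, EPHA2, and in 2.26% of 22131 protein-coding promoters. An AP-1 match was in 1 window, at the inner start of SPRED2, and in 6.15% of all promoters. The ETS core was in 1 window, at the outermost start of SPRY2, and in 21.2% of all promoters. The GC box was in 6 of 9 windows and in 56.3% of all promoters. Median GC content was 63.0% in these windows and 62.3% in all promoters, so base composition was much alike.

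The Sprouty and Spred genes ranged from 1 record to 16 per list. Together they had 27 sg3 records, of which 16 were shared, and 23 V2 records, of which 18 were shared. SPRY2 encodes a membrane-associated inhibitor of receptor signalling to RAS and lies on chromosome 13 from 80335976 to 80341126, on the minus strand, with 3 annotated starts. The sg3 list had 3 records at these starts, and the V2 list had 1. The middle sg3 record ran from 80339758 to 80341298 (fold enrichment 4.15, -log10 q 29.7) and held the V2 record from 80339939 to 80340592 (3.64, 14.4). The other 2 sg3 records, with -log10 q of 18.2 and 12.5, had no V2 partner. In the V2 list the record with the highest -log10 q of the window (24.8) was not at a start but 15611 bases past the 3′ end, from 80319572 to 80320365, where an sg3 record had 24.6.

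SPRY4, a second Sprouty gene, lies on chromosome 5 from 142310430 to 142325021 on the minus strand and had the only strong record without a partner. The sg3 record from 142324017 to 142324882 covered the start in the promoter table, which lies just inside the span of the gene (fold enrichment 6.10, -log10 q 32.1), at the 82.2nd percentile of its list. The V2 list had no record within 1 kb of this start. Its nearest record, 1676 bases upstream, ran from 142325923 to 142326500 (3.50, 10.1) and overlapped the next sg3 record, from 142325257 to 142326669 (4.33, 19.3). Upstream of the gene, an sg3 record from 142355513 to 142357930 had the highest -log10 q of the window (69.5, fold enrichment 8.33). It contained a V2 record with a -log10 q of 42.3 and overlapped part of another with 10.9, so the leading distal site was common to the lists while the start was not.

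SPRED1, the gene of a Spred protein that recruits neurofibromin to RAS, had the fewest records. It lies on chromosome 15 from 38252836 to 38357249 on the plus strand, and its window of 204414 bases held 1 record in each list. The sg3 record ran from 38252130 to 38253179 over the start (fold enrichment 4.72, -log10 q 16.8). The V2 record ran from 38252235 to 38252637, ended 199 bases before the start and was weak in its list (2.73, 6.84, at the 17.9th percentile). No record lay inside the remaining body of the gene in either list.

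SPRED2, which encodes a related inhibitor of RAS-ERK signalling, had 16 sg3 records over 12.2 kb and 12 V2 records over 6.23 kb. It lies on chromosome 2 from 65307175 to 65432599 on the minus strand, and 13 of the sg3 records and 10 of the V2 records overlapped the gene. The strongest record of both lists lay just inside the outer start, at 65430957 to 65432566 in sg3 (fold enrichment 8.05, -log10 q 66.2), with a V2 counterpart at 65431634 to 65432537 (7.34, 42.8). A weaker record on the other side left a gap over the start of 245 bases in sg3 and 591 bases in V2. Inside the gene lay a group of sg3 records from 65381139 to 65386373, delimited by the sg3 records after the values had been seen, so that a higher sg3 count is built in. It held 6 sg3 records over 3.37 kb and 2 V2 records over 0.764 kb, with a highest -log10 q of 18.7 in sg3 and 9.81 in V2.

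The PEA3-type ETS factor genes had 19 sg3 records, of which 6 were shared (31.6%, interval 12.6 to 56.6%), and 7 V2 records, all shared (interval 59.0 to 100%). The sg3 interval holds the whole-list background of 52.4%. ETV4, a transcription factor gene induced by ERK signalling, lies on chromosome 17 from 43527846 to 43546340, with 12 sg3 and 5 V2 records. Its highest -log10 q was inside the gene in both lists, at 43536955 to 43539273 in sg3 (75.2, fold enrichment 8.64), with a V2 counterpart at 43536995 to 43538609 (51.5, 7.77). The gene DHX8, an RNA helicase gene, overlaps ETV4 there, so these records cannot be given to 1 of the genes. At the higher-coordinate end, an sg3 record from 43544773 to 43546395 (6.39, 42.9) spanned 2 V2 records with -log10 q of 25.7 and 11.8. The 8 sg3-only records had a -log10 q of at most 16.8.

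ETV5, the related factor gene, was marked at its end in sg3 alone. It lies on chromosome 3 from 186046314 to 186109089. The higher-coordinate end had sg3 records on both sides, from 186107979 to 186108438 (fold enrichment 3.23, -log10 q 13.7) and from 186109723 to 186110646 (3.69, 8.72), 1284 bases apart. By -log10 q these were moderate to weak in their list, at the 52.2nd and 30.2nd percentiles. Both fold enrichments were below the lower quartile of the whole sg3 list, which is 3.87. Both V2 records of the window lay at least 43431 bases past this end, nearest to DGKG, a lipid kinase gene, and had -log10 q of 5.31 and 9.12. They overlapped sg3 records with 26.2 and 11.8. ETV5 itself was overlapped by 3 sg3 records and by no V2 record.

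EPHA2, the gene of an ephrin receptor tyrosine kinase induced by ERK signalling in epithelial cells, had the largest covered share of its window among the 10, with 27.9% in sg3 and 17.9% in V2. It lies on chromosome 1 from 16124337 to 16156069 on the minus strand. From 16152176 to 16190204, across the start and into the upstream flank, sg3 records followed each other with at most 1 kb between them. This stretch was delimited by the sg3 records after the values had been seen, so a higher sg3 coverage of it is built in. Of 30783 such stretches in the sg3 list this one ranked 40 by length, with 38029 bases. It counted 9 sg3 records covering 91.2% of it and 20 V2 records covering 60.9%. Joining the records of both lists by the same rule could only keep or lengthen the stretch, and left it unchanged. Joining the V2 records alone gave 4 pieces. The longest V2 piece, from 16171346 to 16189856, held 5 sg3 records covering 92.7% of it and 12 V2 records covering 71.6%.

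All 4 records of at least 5 kb among the 88 sg3 records were in this stretch, and none of the 73 V2 records reached that width. Over the whole lists 1.32% of sg3 and 0.384% of V2 records did, so the V2 count of 0 is no result about these genes. The sg3 record with the highest -log10 q ran from 16170634 to 16177855 (94.8, fold enrichment 9.75), at the 98.5th percentile of its list. The V2 record with the highest -log10 q ran from 16171346 to 16176015 (67.8, 9.45), at the 97.6th percentile. Both lay upstream, with the nearer edge 14565 bases from the start in sg3 and 15277 bases in V2. A further sg3 record from 16178018 to 16184699 (81.6, 11.1) overlapped 6 V2 records, the strongest of which had 47.5 and 8.95. At the start, the sg3 record from 16152176 to 16160007 (49.3, 5.44) covered it. In V2 a record from 16154829 to 16156058 (41.9, 5.81) ended 11 bases inside the gene, and the next began 559 bases upstream at 16156628 (37.7, 7.54).

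The stretch was not placed with EPHA2 alone. The summits of 5 sg3 and 10 V2 records of the window were nearer to ARHGEF19, the gene of a guanine nucleotide exchange factor that lies 41785 bases past the start of EPHA2. The antisense RNA gene EPHA2-AS1 is also annotated at this end. Without EPHA2, the record counts were 76 in sg3 and 52 in V2, a ratio of 1.46, against 1.41 over the whole lists. The exact interval of 1.01 to 2.12 covers counting error only. It treats each record as a separate draw, while 45 of the 52 V2 records overlapped an sg3 record. Covered bases without EPHA2 had a ratio of 1.91, against 1.75 over the whole lists.

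**Figure D3:**
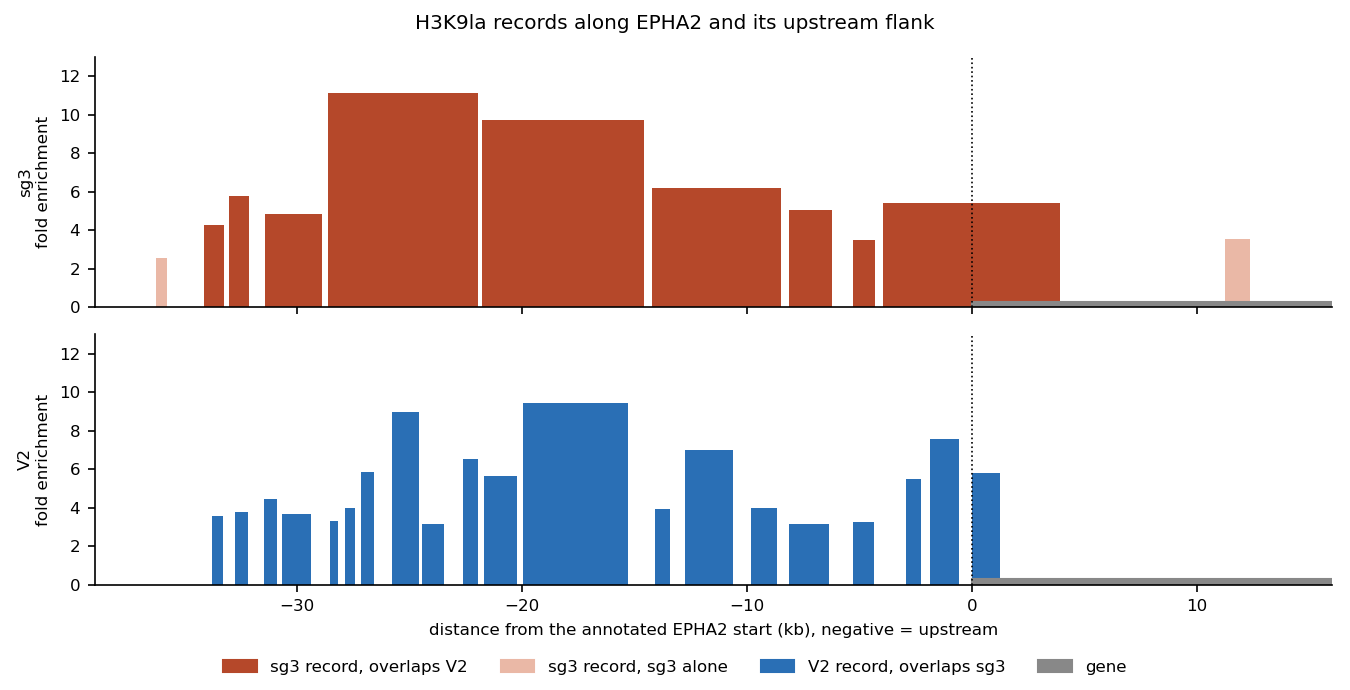
Fold enrichment of each record, as deposited, against the distance in kb from the annotated EPHA2 start, with upstream to the left, for sg3 (upper) and V2 (lower). Bar width is the record's true width; heights rank records within a list and are not compared between lists. The V2 list shows 20 separate bars over the stretch that 9 sg3 bars cover.

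A gene was called marked when a record lay within 1 kb of an annotated start, or of either end for the 4 genes with no start in the table. All 10 genes were marked in sg3, where 47.2% of all protein-coding genes did. In V2 it was 8 of 10, where 28.7% did, and these 8 were marked in both lists, where 28.3% were. The 2 genes marked in sg3 alone were SPRY4 and ETV5, where 18.9% of all protein-coding genes were marked in sg3 alone. All 10 were marked in sg3, however, and of 9419 protein-coding genes marked in sg3, 3775 were marked there alone. That is a larger share than 2 of 10, and the difference was not tested. The SPRY4 call holds for the annotated start only: the V2 record 1676 bases upstream of it lies 902 bases from the end of the gene span, and with a distance of 2.5 kb V2 marked 9 of 10 genes. None of the 10 was marked in V2 alone, where 0.441% of genes were. With a window of 250 bases before to 50 after a start, which can be applied to 6 of the genes, 5 were marked in sg3 and 3 in V2. Of 15811 genes with a start in the table, 35.8% were marked in this window in sg3 and 16.7% in V2.

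The position of these records relative to the start was examined after the values had been seen. The start itself was covered by a record at 6 genes in sg3, where 21.5% of all genes and 45.7% of genes marked there were covered, and at 2 genes in V2 (SPRY2 and ETV4), where 9.16% and 31.9% were. An uncovered start with a record on each side within 1 kb was seen at 5 genes in sg3 (DUSP5, DUSP6, SPRY2 at its innermost start, SPRED2 and ETV5). Of all genes 10.1% had this arrangement in sg3, and of marked genes 21.5%. It was also seen at 5 genes in V2 (DUSP4, DUSP5, DUSP6, SPRED2 and EPHA2), where 5.26% of all genes and 18.3% of marked genes had it. DUSP5, DUSP6 and SPRED2 had it in both lists, and in each of them the gap was shorter in sg3. As sg3 records covered more bases at 96.4% of genes with a record of each list, this is not read as particular to these genes. No share of all genes with a shorter sg3 gap is given. A DUSP4 gap of 315 bases and an EPHA2 gap of 569 bases in V2 lay where sg3 records reached over the position.

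**Figure D4:**
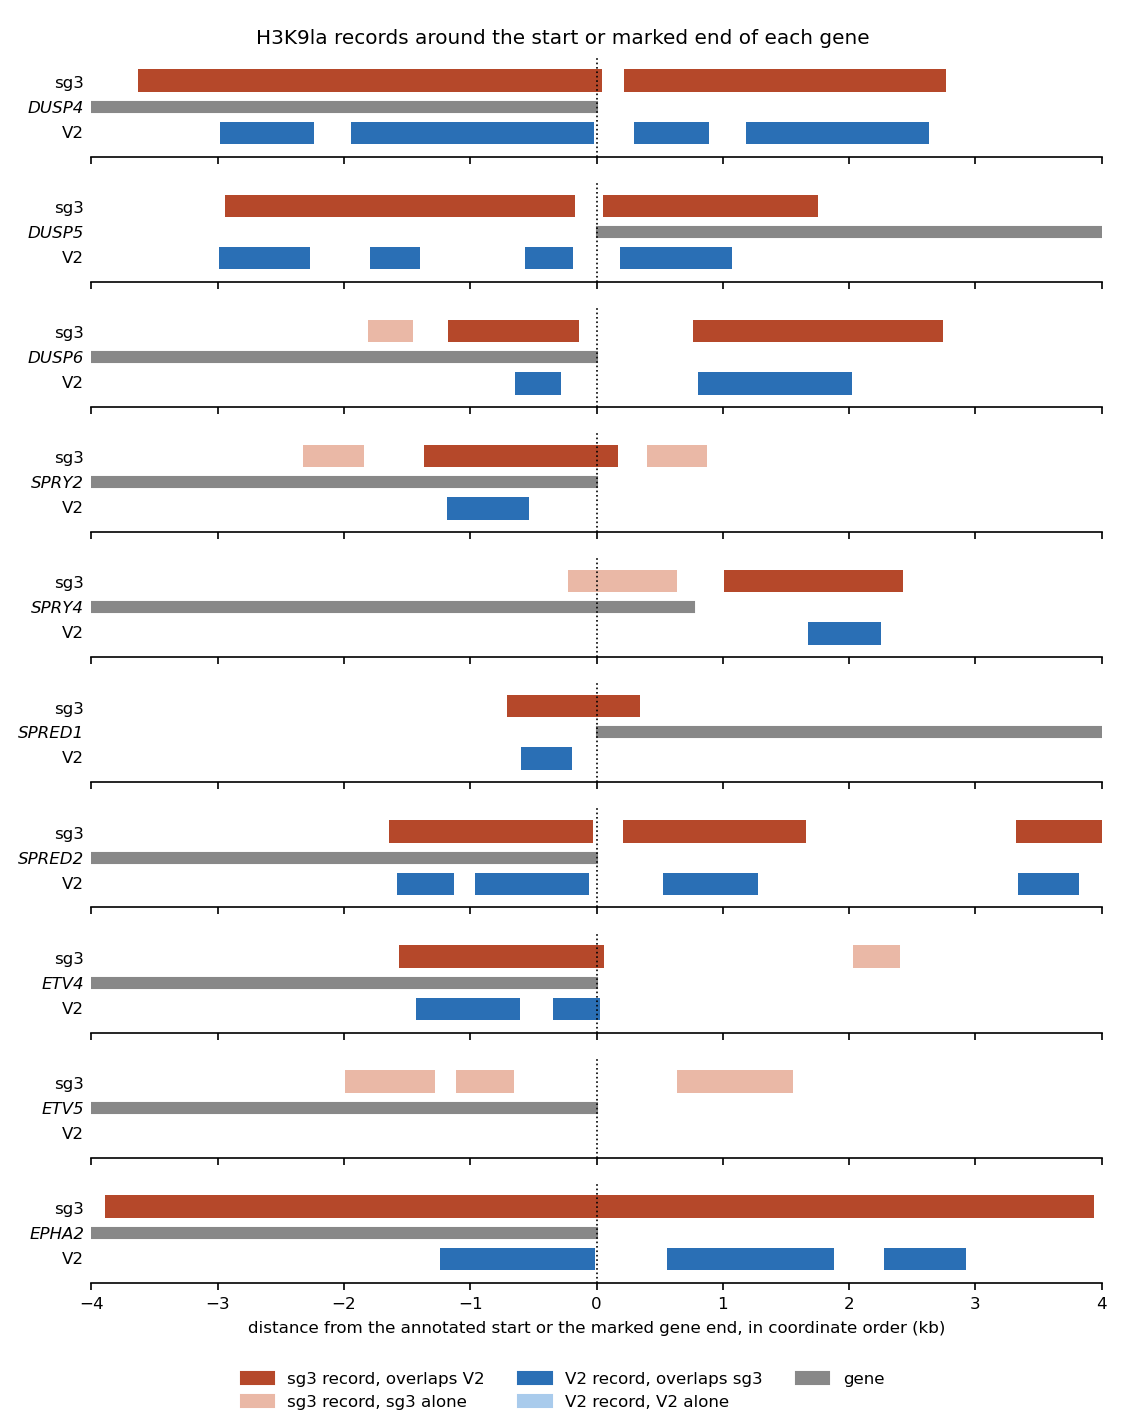
H3K9la records within 4 kb of the outermost annotated start (of the marked gene end for DUSP4, DUSP5, ETV4 and ETV5), in coordinate order, with sg3 in red above the gene and V2 in blue below it. The dotted line is the start or end; at DUSP5, DUSP6 and SPRED2 it falls in a gap between records in both lists, and ETV5 has no V2 record in view.

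Of 69 other pathway genes, 58 had an sg3 record within 1 kb of the start and 48 had one in V2, all 48 being marked in both. The other 10 of the 58 were marked in sg3 alone. Of all protein-coding genes, 47.2% were marked in sg3, 28.7% in V2, 28.3% in both and 18.9% in sg3 alone. Marking in sg3 alone was thus no more frequent among the 69 than among all genes. Among genes marked in sg3, it was seen at 10 of the 58, against 3775 of 9419 protein-coding genes. The same shares are the background for each list below, and -log10 q values are read within each peak list. From receptors to RAS, 10 of 15 genes were marked in both lists and 2 in sg3 alone, the RAS gene NRAS (fold enrichment 9.65, -log10 q 30.7) and the exchange factor gene SOS2 (3.04, 14.1). Ranked by the sg3 -log10 q, the shared members were led by the adaptor gene SHC1, with 112.02 in sg3 and 78.0 in V2. EGFR came next, with 97.0 in sg3 and 28.0 in V2, the latter below the V2 values of SOS1 and RRAS. SOS1 had 78.1 in sg3 and 70.3 in V2, and RRAS had 67.8 in sg3 and 57.9 in V2.

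The kinase and scaffold list had 9 of 15 genes in both lists and 5 in sg3 alone. Those in sg3 alone included the ERK gene MAPK3 (3.80, 11.6), the MEK gene MAP2K2 (3.01, 7.11), the RAF gene ARAF (6.45, 11.4) and the scaffold gene LAMTOR3 (6.98, 15.9), with the sg3 fold enrichment and -log10 q in brackets. Ranked by the sg3 -log10 q, IQGAP1, another scaffold gene, led the shared ones with 90.5 in sg3 and 24.8 in V2. In V2 the highest value of the shared ones was that of YWHAZ (60.5). Of 14 negative regulators of RAS, 12 were marked in both lists, and PEBP1, the gene of a RAF inhibitor, in sg3 alone (5.69, 24.6). The shared ones were led by the EGFR inhibitor gene ERRFI1 (91.9 in sg3 and 52.3 in V2) and the RAS-GAP gene NF1 (78.0 in sg3 and 36.1 in V2). ERF, an ETS repressor gene, had 44.9 in sg3 and 26.8 in V2, and the RAS-GAP gene RASAL2 had 37.7 in sg3 and 21.8 in V2.

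Among paralogues of the 10 genes, 8 of 15 were marked in both lists and 2 in sg3 alone, while 5 were unmarked. The sg3-only ones were EPHB2 (2.89, 6.08) and EPHA4 (2.26, 3.52), both weak. By the sg3 -log10 q, the phosphatase genes DUSP1, DUSP16, DUSP10 and DUSP7 led the shared ones. DUSP1 had a -log10 q of 83.7 in sg3 and 41.7 in V2, and DUSP16 had 80.0 in sg3 and 67.0 in V2. DUSP10 had 60.9 in sg3 and 27.7 in V2, and DUSP7 had 43.2 in sg3 and 15.6 in V2. Of 10 other ERK output genes, 9 were marked in both lists and SH2B3 in neither. The AP-1 gene FOSL1 led them with 97.5 in sg3 and 81.4 in V2. In the order of the sg3 values, LIF followed with 87.4 in sg3 and 30.0 in V2. PHLDA1 had 69.96 in sg3 and 32.0 in V2, and KLF6 had 68.9 in sg3 and 46.6 in V2. MAFF had 64.4 in sg3 and 41.0 in V2, and CCND1 had 58.9 in sg3 and 21.8 in V2. The 10 members, by the same measure, ran from 13.7 (ETV5) to 66.2 (SPRED2) in sg3.

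**Figure D5:**
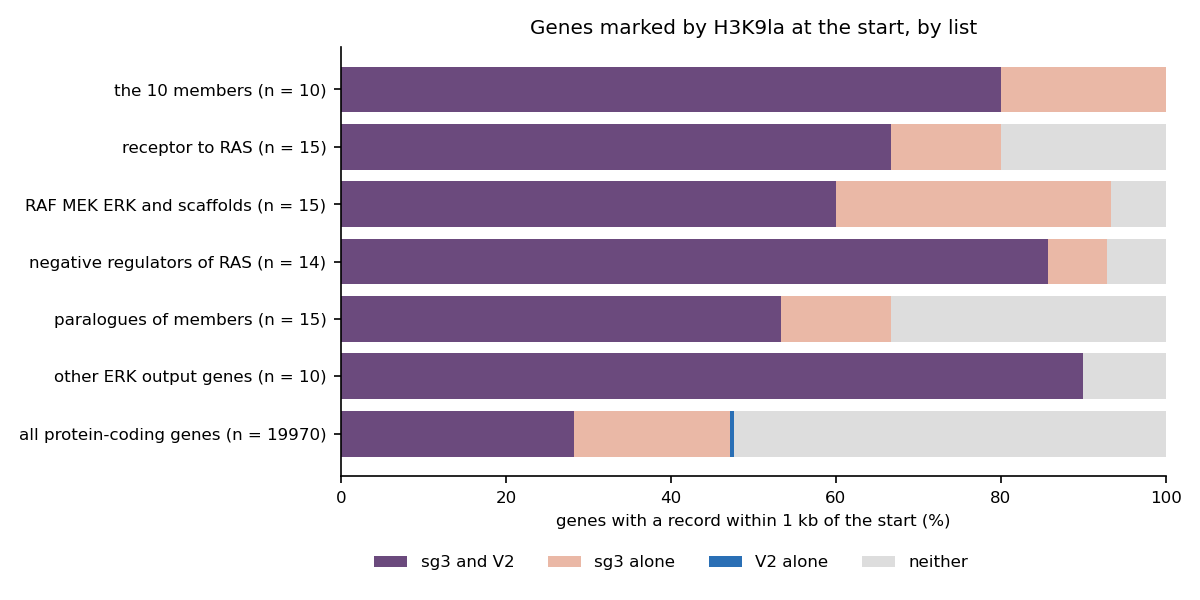
Percentage of genes with a record within 1 kb of the start (of either end where no start was in the table) in both lists, in 1 list alone or in neither, for the 10 genes, 5 lists of other pathway genes and all 19970 protein-coding genes. Marking in V2 alone is absent from the pathway lists and is 0.441% of all genes.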

How the data were processed

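H3K9la ChIP-seq of KYSE30 cells is represented by 1 deposited peak list in the narrowPeak layout for each of the arms sg3 and V2. Per the submitters' processing notes, the tools were MACS2 2.2.9.1, Bowtie2 2.5.1, SAMtools 1.18, FastQC 0.12.1 and Trim Galore 0.6.10, with genome build hg38. Not given in the sources used here: the caller's settings, the control library, the read depth and the handling of multiply aligned reads. The fold enrichment of a record is the authors' deposited ratio. The -log10 p (not used) and -log10 q are the authors' deposited values. The integer score, as deposited, equals 10 times the -log10 q without decimals in 99.98% of sg3 and 99.82% of V2 records and was not used. The summit offset was used as a position.

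Gene spans, starts and promoter sequences came from RefSeq tables of GRCh38.p14, the same build, which give no exons. Genes were protein-coding ones on chromosomes 1 to 22 and X. Of 19970, 15811 had an annotated start, and either end stood in for the others. Counting used Python 3.11.15 with pandas 2.3.3 and scipy 1.17.1, and the counting code was tested on simulated lists. Intervals are exact Clopper-Pearson 95% intervals and cover counting error only. They treat records as independent draws, which shared and adjacent records are not. With 1 list per arm no p-value was computed. In the nearest-gene setting 94 read-through genes were left out. The members and gene lists were chosen with earlier results of these data known. All 10 members were described, with the record at the start and the record of highest -log10 q in each list. From each pathway list up to 6 genes were named, first those marked in 1 list, then those in both, each by the sg3 -log10 q. A few of the genes so chosen are not reported here. Alternatives changed the window, the thresholds, the list length, the merging of records and the overlap.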

Additional observations from a re-analysis of the deposited data

How the results depend on the processing

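With 1 library per arm nothing here has replicate support and read depth is unknown. The covered-base ratio stayed above 1 in all 9 alternatives run, from 1.57 to 2.19. It is 1.75 over the whole uncut lists, so a ratio above 1 is not particular to these genes. The record ratio ran from 0.877 (lists of equal length) to 1.60 (gene body only). In lists of equal length, more sg3 than V2 records were left at 3 genes, and 65.6% of sg3 records were shared. Merging records within 1 kb left 4 genes with more sg3 records. At a fold enrichment of at least 4, 40.7% of sg3 and 72.1% of V2 records were shared and 5 genes were marked at the start in V2. Requiring 50% of a record to overlap left 43.2% of sg3 records shared. In the window of 250 bases before to 50 after a start, 5 genes were marked in sg3 and 3 in V2. Within 2.5 kb of a start V2 marked 9 genes, SPRY4 among them. Apart from the window of 250 bases before to 50 after a start, no share over all genes or whole lists is given for these alternatives. The shifts are therefore not read as particular to these genes. The cause of these shifts was not tested.

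Differences in record number (sg3 minus V2) changed sign for several genes. SPRY4, at -2 as reported, was at 1 over the gene body and in windows of 10 and 100 kb. EPHA2, at -9 as reported, was at 1 over the gene body. In lists of equal length DUSP4 was at -2 and DUSP5 at -3. DUSP5 was also at -2 in a 10 kb window. After merging, DUSP6 was at -1 and SPRED2 at -2. Genes flanked on both sides of an uncovered start ran from 1 to 5 in each list, with 1 after merging. Merging closes every gap of at most 1 kb by construction, so that drop is no check of the arrangement. That arrangement and its alternatives were chosen after seeing the data. No paired analysis was possible because each arm has 1 list.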
